A study of Mus musculus with 6 samples.

Results

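The transcripts described here encode feedback inhibitors of the ERK pathway: the Sprouty genes Spry1, Spry2 and Spry4, the SPRED genes Spred1, Spred2 and Spred3, and the dual-specificity phosphatase genes Dusp1, Dusp4, Dusp5 and Dusp6. They were taken by gene symbol, as a family chosen with earlier results of these data known, and all 10 were found among 23355 gene entries. RNA sequencing had been done on ID4-GFP+ spermatogonia, dividing germ cells of the mouse testis in which green fluorescence reports on expression of the transcription regulator ID4. The groups were 3 control samples and 3 samples labelled as ID4 germ cell overexpression, which the series describes as constitutive, and both groups carried the reporter. The age of these animals, the construct that drives ID4 and the genetic background of the controls are not given in the sources used here. The deposited table holds 1 FPKM value per group (read fragments scaled to transcript length and to the total mapped), which the authors had combined over the 3 samples. No value below therefore has a replicate SD, the depth of each sample is unknown, and no order of levels can be set against a spread. Replicate error enters only through the authors' q-value, and a gene is called higher or lower where q is at most 0.05 and the authors tested it. The labels do not say whether the samples came from separate animals, so the q-values cannot be taken to cover differences between animals.

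Growth factor receptors, among them RET, which responds to GDNF in spermatogonia, and the FGF receptors, activate RAS, which passes the signal through RAF and MEK to the kinase ERK. ERK in turn induces genes whose products damp the same pathway. Sprouty proteins act between receptor and RAF, SPRED proteins bring the RAS inhibitor neurofibromin to the membrane, and several DUSP proteins remove phosphate from ERK itself. The level of these transcripts is often used as a readout of ERK output, and ERK activity itself was not part of these data.

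Spry4, Spry1, Dusp6 and Spred1 were higher with ID4 overexpression, and no member was called lower. The authors tested 8 of the 10. Of these, 4 were called higher, 0 lower and 4 were not called. Among all 10990 tested genes, 9.59% were called higher and 7.42% lower. At the authors' (Cuffdiff layout) unadjusted p under 0.05, 5 members were higher and 0 lower. The share of all tested genes at that p was not computed. At q thresholds of 0.01 and 0.1, 3 and 5 members were higher, against 6.04% and 12.3% of tested genes, and 0 were lower, against 4.09% and 9.77%. The median log2 fold change was 0.85 over the 8 tested members and 0.01 over all tested genes. Of the 8, 7 lay above 0, against 51.5% of all tested genes. Spred1 was the called gene nearest to the threshold (q = 0.0453 in the authors' deposited table), and Dusp5 was the uncalled gene nearest to it (q = 0.0990). Dusp4 and Spred3, each below 1 FPKM in both groups, were not tested.

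**Figure D1:**
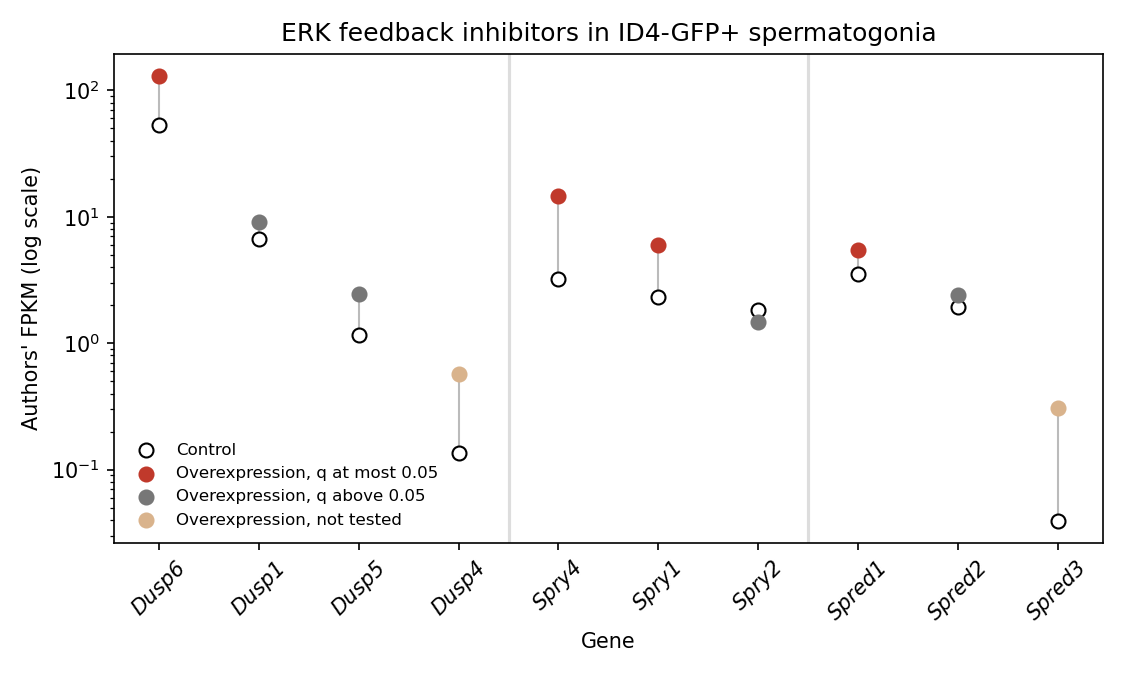
Authors' FPKM (log axis) of the 10 feedback inhibitors, 1 value per group over 3 samples; open circles are controls and filled circles ID4 overexpression, coloured by the authors' test. Dusp6 lies above all the others in both groups, Spry4 moves farthest among the called genes, and Spry2 is the gene whose overexpression value lies below its control value.

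RNA of other testis cell types differed between the same groups. Of 15 tested macrophage markers, 14 were higher, with a median log2 fold change of 2.07 and a summed level of 90.3 FPKM in controls and 334 FPKM with overexpression. C1qc (0.889 and 7.56 FPKM), H2-Ab1 and Aif1 led them. H2-Aa was the macrophage marker listed at 0 in controls. Of 13 tested Sertoli cell markers, 9 were higher (median 1.52; summed level 199 and 402 FPKM), among them the inhibin gene Inha and Cst12. Of 6 tested Leydig cell markers, 4 were higher (median 1.33; summed level 56.7 and 103 FPKM), among them the steroid synthesis genes Cyp11a1, Hsd3b1 and Star. Of 4 tested fibroblast and matrix genes, 3 were higher, Igf1, Sparc and Pdgfra (median 1.39). The list summed to 20.5 and 51.6 FPKM, of which Sparc held 11.5 and 34.1 FPKM. Dcn was not called (2.41 and 3.46 FPKM). Col1a1, Col1a2, Col3a1, Lum and Mgp were not tested, and their log2 values ran from 0.26 to 0.65. Of 7 endothelial markers the authors tested 1, Egfl7, which was lower (21.0 and 13.7 FPKM). Pecam1, Cdh5, Kdr, Tek and Emcn, not tested, had higher values with overexpression, for example Kdr at 0.364 and 0.774 FPKM. Vwf, also not tested, was at 0.121 and 0.119 FPKM. The authors tested 0 of 5 peritubular myoid markers, whose highest level was 1.45 FPKM. The 9 germ cell markers had a median of -0.05 and summed to 2823 and 2480 FPKM, with Uchl1 and Lin28a lower. Sprouty, SPRED and DUSP genes are expressed in many cell types. In bulk RNA, more cells of a type and more RNA per cell cannot be told apart, and the part of other cells in the values below was not tested. Id4, the targeted gene, had a control level of 6.37 FPKM and an overexpression level of 13.4 FPKM (q = 0.000835 in the authors' deposited table), which does not separate transgenic from endogenous transcript.

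The proximal promoters of 5 members are shown because Dusp6, Spry1 and Spred1 rose together, and because Dusp5 and Dusp1 hold elements known from growth factor induction. Each is the 250 bases before the RefSeq transcription start on GRCm38.p6, 5′ to 3′ on the gene's strand: chr10:99262981-99263230 (plus strand) for Dusp6, chr3:37639697-37639946 (plus) for Spry1, chr2:117120821-117121070 (plus) for Spred1, chr19:53528895-53529144 (plus) for Dusp5 and chr17:26508473-26508722 (minus) for Dusp1. Capitals mark matches on either strand to CANNTG (E-box), GGGCGG (GC box), TGACGTC (most of the cyclic AMP response element) and the CArG box bound by serum response factor. The E-box is bound by bHLH proteins, among them those that ID factors sequester. CANNTG does not separate its forms, and the Dusp1 match is CACGTG.
Dusp6: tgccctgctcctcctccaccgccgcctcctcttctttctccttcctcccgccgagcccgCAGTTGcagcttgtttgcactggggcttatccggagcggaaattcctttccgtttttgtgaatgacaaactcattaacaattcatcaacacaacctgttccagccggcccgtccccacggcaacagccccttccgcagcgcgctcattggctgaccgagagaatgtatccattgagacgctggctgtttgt
Spry1: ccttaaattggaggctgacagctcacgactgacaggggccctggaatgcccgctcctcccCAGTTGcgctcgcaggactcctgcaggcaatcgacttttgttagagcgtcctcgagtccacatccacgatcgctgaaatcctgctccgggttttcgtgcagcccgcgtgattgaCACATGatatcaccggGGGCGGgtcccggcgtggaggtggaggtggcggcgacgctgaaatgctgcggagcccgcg
Spred1: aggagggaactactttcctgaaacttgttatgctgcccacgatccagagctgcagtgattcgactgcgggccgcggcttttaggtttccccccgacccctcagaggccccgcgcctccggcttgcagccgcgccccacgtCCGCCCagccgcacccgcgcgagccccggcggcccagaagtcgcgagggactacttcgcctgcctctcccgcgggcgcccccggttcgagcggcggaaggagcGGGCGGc
Dusp5: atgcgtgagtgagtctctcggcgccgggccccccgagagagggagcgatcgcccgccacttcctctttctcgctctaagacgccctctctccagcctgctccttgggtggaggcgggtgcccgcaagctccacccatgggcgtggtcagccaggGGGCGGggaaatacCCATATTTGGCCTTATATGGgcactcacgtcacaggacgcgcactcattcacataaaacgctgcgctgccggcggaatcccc
Dusp1: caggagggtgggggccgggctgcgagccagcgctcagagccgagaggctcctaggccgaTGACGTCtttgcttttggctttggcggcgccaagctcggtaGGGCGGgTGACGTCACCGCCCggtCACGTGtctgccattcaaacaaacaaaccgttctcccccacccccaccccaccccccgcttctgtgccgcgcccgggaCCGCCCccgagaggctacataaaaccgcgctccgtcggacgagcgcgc
Promoters of 8 members were in the table. An E-box of any form was present in 5 of the 8 (Dusp1, Dusp6, Spred3, Spry1 and Spry2), against 66.2% of 32851 promoters of this length. This and the following shares are over all 32851, whether or not the gene was tested or expressed here, so they are not shares of tested genes. The forms CAGGTG and CAGCTG were in 0 of the 8, against 17.2% and 13.0% of promoters. The GC box was in 6 of the 8 (32.7% of promoters). The complete element TGACGTCA was in Dusp1 (1.55% of promoters), which holds TGACGTC in a further place, at position -191 relative to the start; in Dusp1 the complete element abuts a GC box, so that their capitals form a single run. Spred2 also matches TGACGTC, which 2.78% of promoters hold. Dusp5 holds a pair of adjoining CArG boxes, CCATATTTGG and CCTTATATGG, starting at positions -82 and -72 (1.47% of promoters hold at least 1). CCGGAA, a longer form of the GGAA core of ETS factor sites, was in 0 of the 8 (12.0% of promoters). GGAA itself was not counted, and it occurs in the Dusp6, Spry1, Spred1 and Dusp5 sequences above. A match is a string of letters and not evidence of binding, and the windows hold the proximal part only. For Spred1 and Dusp5 the start of the deposited entry lies 379 and 173 bases downstream of the RefSeq start used here.

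Among the Sprouty genes, Spry4 and Spry1 were higher and Spry2 was not called. Spry4 was at 3.23 FPKM in controls and 14.6 FPKM with overexpression, and it was the largest change among the tested members. The fold was 4.54 (log2 2.18, q = 0.000835 in the authors' deposited table), and 99.1% of tested genes had a lower log2 fold change. Spry4 protein binds RAF and limits signalling below the FGF and other receptors. Its locus is on chromosome 18 of GRCm38, 38586265 to 38601268, minus strand.

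Spry1, whose product restrains signalling by RET during kidney development in mice, was at 2.32 FPKM in controls and 5.94 FPKM with overexpression. It rose 2.57-fold (log2 1.36, q = 0.000835 in the authors' deposited table), a log2 value above that of 96.6% of tested genes. The gene lies on chromosome 3, positions 37639950 to 37644599, plus strand. Spry2, at 1.84 and 1.48 FPKM, had a log2 fold change of -0.31 and was not called (q = 0.603, authors' deposited table). Spry2 encodes the Sprouty protein best known for binding GRB2 and the ubiquitin ligase CBL, and it lies on chromosome 14, positions 105891947 to 105896819, minus strand. Spry3, not among the members, was at 0.0364 and 0.0361 FPKM and was not tested.

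Spry4 held a larger share of the Sprouty FPKM with overexpression than in controls. In controls Spry4, Spry1 and Spry2 made up 43.5%, 31.2% and 24.7% of the summed Sprouty FPKM. With overexpression the shares were 66.3%, 26.9% and 6.68%, while the sum went from 7.42 to 22.1 FPKM. The ratio of the Spry4 level to the Spry2 level was 1.76 in controls and 9.92 with overexpression. This difference between genes was not tested, since the table gives no values per sample. In the same comparison the macrophage list had a median of 2.07 and the Sertoli list 1.52.

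Of the SPRED genes, Spred1 was higher, Spred2 was not called and Spred3 was not tested. Spred1 had 3.56 FPKM in controls and, at 5.51 FPKM, was 1.55-fold higher with overexpression (log2 0.63, q = 0.0453 in the authors' deposited table), and it was not called at a q threshold of 0.01. Its product recruits neurofibromin, and loss of the human gene causes Legius syndrome. The gene lies on chromosome 2, positions 117121450 to 117179336, plus strand. Spred2 was at 1.95 and 2.41 FPKM (log2 0.31) and was not called (q = 0.517, authors' deposited table). It lies on chromosome 11, positions 19924442 to 20022597, plus strand. Spred3 (chromosome 7, 29158829 to 29168647, minus strand) was at 0.0396 and 0.305 FPKM and was not tested, and its log2 value of 2.95 fell to 0.33 with a pseudocount of 1 FPKM. Spred1 held 64.2% of the summed SPRED FPKM in controls and 67.0% with overexpression. Beside the rise of Spred1, the macrophage list had a median of 2.07 and the Sertoli list 1.52.

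Dusp6, which encodes the cytoplasmic phosphatase MKP-3 with high selectivity for ERK, was the most abundant member. It stood at 52.9 FPKM in controls and at 129 FPKM in the overexpression group, a 2.44-fold rise (log2 1.29, q = 0.000835 in the authors' deposited table). Of all tested genes, 82.1% had a lower control level and 91.9% a lower level with overexpression. The gene lies on chromosome 10, positions 99263231 to 99267489, plus strand. Dusp6 made up 71.7% of the FPKM summed over the 10 members in controls and 75.3% with overexpression, so a sum over the members follows it. Its level was 2.21 times that of Mapk3, which encodes a substrate kinase, in controls and 6.49 times with overexpression. Mapk3 was not called (log2 -0.26).

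Of the other cytoplasmic ERK phosphatases, Dusp7 was higher and Dusp9 was not called. Dusp7 rose from 5.53 to 8.71 FPKM (log2 0.66, q = 0.0162 in the authors' deposited table). Dusp9 was at 6.89 and 5.90 FPKM (log2 -0.22). The level of Dusp6 was 9.56 times that of Dusp7 in controls and 14.8 times with overexpression. Beside both rises the macrophage list had a median of 2.07 and the Sertoli list 1.52.

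**Figure D2:**
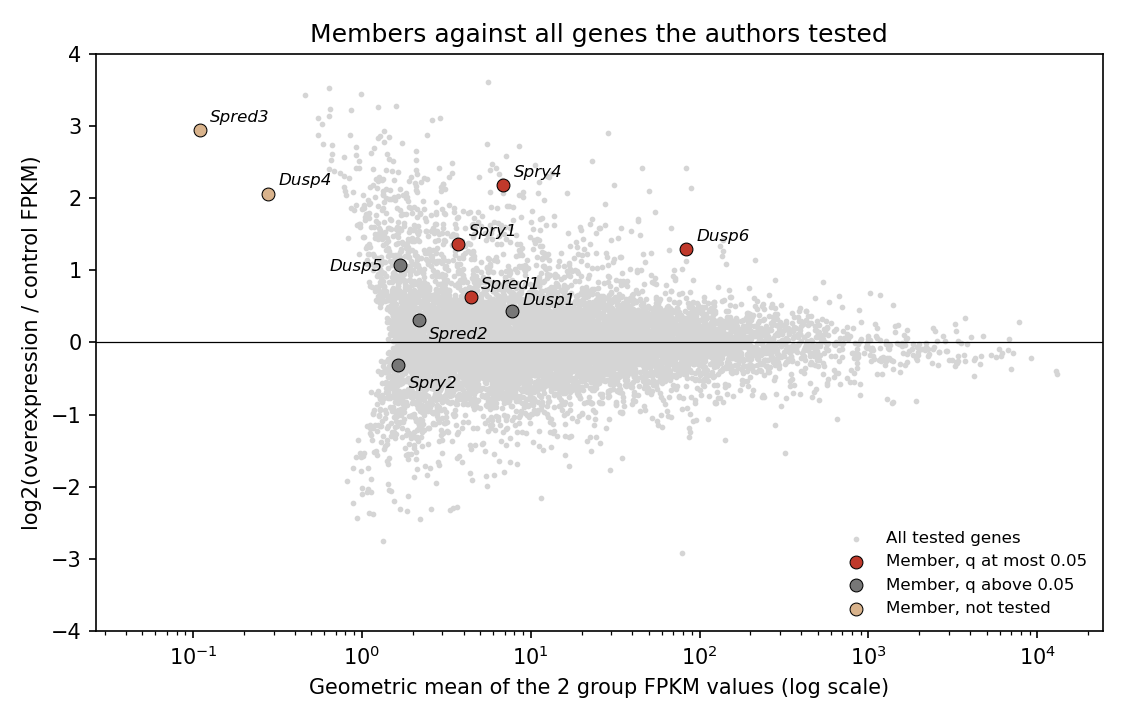
The log2 ratio of overexpression to control FPKM against the geometric mean of both FPKM values (log axis) for tested genes above 0 in both groups (grey) and the 10 members (named, coloured by the authors' test). Of the tested genes, 7 lie outside the range of the vertical axis and are not shown. Dusp6 is the member at high expression, at 1.29; Spred3 and Dusp4, not tested, lie below the expression range of nearly all tested genes.

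The inducible nuclear phosphatases gave no called member. Dusp1 encodes MKP-1, which acts on p38 and JNK as well as ERK, and was at 6.66 FPKM in controls and 9.03 FPKM with overexpression. Its log2 fold change was 0.44 and it was not called (q = 0.199, authors' deposited table). Dusp5, whose product binds ERK in the nucleus, was at 1.16 and 2.46 FPKM (log2 1.08), and was called at a q threshold of 0.1 but not at 0.05. Dusp4, a nuclear phosphatase of ERK and JNK also known as MKP-2, was at 0.136 and 0.566 FPKM and was not tested. Its log2 value of 2.06 fell to 0.46 with a pseudocount of 1 FPKM. The genes lie on chromosome 17 (26505591 to 26508472, minus strand), chromosome 19 (53529318 to 53541322, plus strand) and chromosome 8 (34807610 to 34819894, plus strand). The remaining gene of this class, Dusp2, known from activated lymphocytes, was lower: 4.76 FPKM in controls and 1.87 FPKM with overexpression (log2 change -1.35, q = 0.00215 in the authors' deposited table).

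Across the DUSP family, Dusp6 and Dusp7 were the genes called higher and Dusp2 the gene called lower. Of 18 tested Dusp entries 2 were higher and 1 lower, where 9.59% and 7.42% of all tested genes were. The median log2 fold change of these entries was -0.03. The phosphatases that prefer JNK and p38 had values below 0 in 3 of 3 genes, where 51.5% of all tested genes lay above 0. None of the 3 was called, although 2 had an unadjusted p under 0.05 in the authors' test. The share of all tested genes at that p was not computed. Dusp10 was at 4.60 and 2.97 FPKM (q = 0.0611), Dusp8 at 4.12 and 2.77 FPKM (q = 0.0599) and Dusp16 at 2.63 and 1.93 FPKM (q = 0.206, all from the authors' deposited table). Of 9 tested atypical dual-specificity phosphatases, 0 were called and 0 had an unadjusted p under 0.05 in the authors' test, with log2 values from -0.53 to 0.31. The most abundant of these were Dusp14, at 36.4 and 29.7 FPKM, and Dusp22, at 18.4 and 20.02 FPKM. Dusp6 held 26.8% of the FPKM summed over all 24 Dusp entries in controls and 48.1% with overexpression. Without the 4 members, the remaining 20 entries summed to 136 and 127 FPKM.

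**Figure D3:**
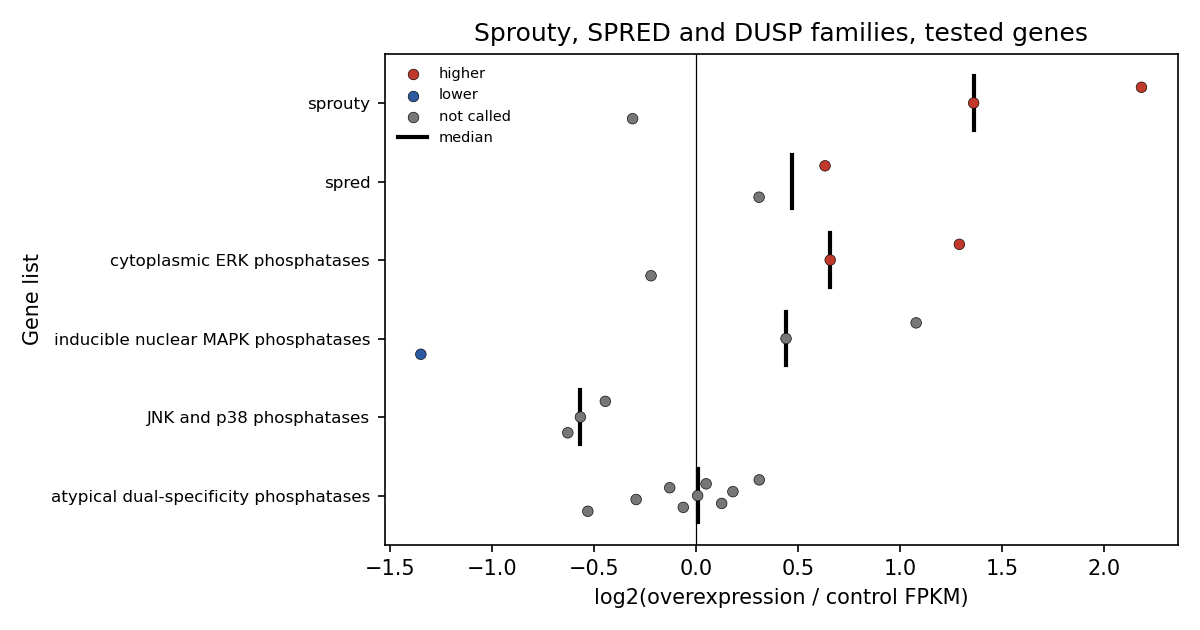
The log2 ratio of overexpression to control FPKM for each tested gene of the Sprouty, SPRED and DUSP families, by class; red, blue and grey points were called higher, called lower or not called by the authors' q of 0.05, and bars are class medians. The medians are 1.36 for Sprouty, 0.66 for the cytoplasmic ERK phosphatases, -0.57 for the JNK and p38 phosphatases and 0.01 for the atypical phosphatases.

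In the kinase cascade that these genes act on, calls were about as frequent as among all tested genes. Of 20 tested genes, from the adaptors to ERK and the RSK kinases below it, 2 were higher and 1 was lower, where 9.59% and 7.42% of all tested genes were, and the median log2 fold change was 0.00. The adaptor genes Gab1 and Shc1 rose, Gab1 from 8.51 to 14.6 FPKM and Shc1 from 16.5 to 24.5 FPKM. The RAS gene Hras1 fell from 7.87 to 4.91 FPKM. No RAF or MEK gene was called, and 0 had an unadjusted p under 0.05: the 3 RAF genes summed to 64.1 and 74.4 FPKM and the 2 MEK genes to 31.6 and 31.9 FPKM. Beside the adaptor genes, the macrophage list had a median of 2.07 and the Sertoli list 1.52.

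Other brakes on the pathway rose in some cases. Of 9 tested receptor and RAF brakes, 2 were higher and 0 lower, where 9.59% and 7.42% of all tested genes were. The median log2 fold change of these brakes was 0.01. Il17rd, which encodes the FGF feedback inhibitor SEF, rose from 2.77 to 5.63 FPKM (log2 1.02), and Pea15a, whose product holds ERK in the cytoplasm, rose from 10.2 to 19.2 FPKM (log2 0.90). Both had q = 0.000835 in the authors' deposited table. Of 7 tested RAS GTPase-activating proteins, 0 were higher (also 0 at an unadjusted p under 0.05) and 1 was lower, Rasa4, from 3.48 to 1.93 FPKM, and the gene for neurofibromin, the partner of the SPRED proteins, was among the 6 not called. The GTPase-activating proteins had a median log2 fold change of 0.04. Medians beside these lists were 2.07 for macrophage and 1.52 for Sertoli genes.

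Transcripts that ERK signalling is known to induce were higher in most cases. Of 12 tested ERK target genes outside the members, 8 were higher and 0 lower, where 9.59% and 7.42% of all tested genes were. The median log2 value of these targets was 0.80. Etv4, an ETS factor of the PEA3 group, rose from 2.52 to 8.35 FPKM. Phlda1 rose from 0.890 to 2.16 FPKM, and Epha2, an ephrin receptor gene, from 2.73 to 6.58 FPKM. Fos and Ccnd1, named after their values were seen, were not called, with log2 values of -0.19 and -0.08. Tissue dissociation also induces some of these genes, and 5 tested genes are shared with the list of immediate-early and dissociation genes. On that list 8 of 14 were higher and 1 lower (median 0.73), led by Cyr61, Atf3 and Klf6. Of the 7 tested ERK targets not on it, 5 were higher, with a median of 1.02. The macrophage and Sertoli lists had medians of 2.07 and 1.52, and the part of dissociation or of other cells in the ERK targets was not tested.

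Receptors and ligands upstream moved in both directions. Of 12 tested, 7 were higher and 2 lower, where 9.59% and 7.42% of all tested genes were. The median log2 value of this list was 0.60. Kitl, the KIT ligand made by Sertoli cells, rose from 0.605 to 2.88 FPKM, and Csf1r, the receptor of macrophages, from 2.27 to 7.88 FPKM. Gfra1, the GDNF co-receptor on undifferentiated spermatogonia, rose from 15.8 to 37.3 FPKM. Ret, named after its values were seen, rose from 9.92 to 16.5 FPKM, while Kit and Fgfr3, also named afterwards, fell, Kit from 84.3 to 38.1 FPKM and Fgfr3 from 2.35 to 1.04 FPKM. Kitl, Csf1r and Pdgfra are also on the Sertoli, macrophage and fibroblast lists, whose medians were 2.07 for macrophage, 1.52 for Sertoli and 1.39 for fibroblast genes.

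**Figure D4:**
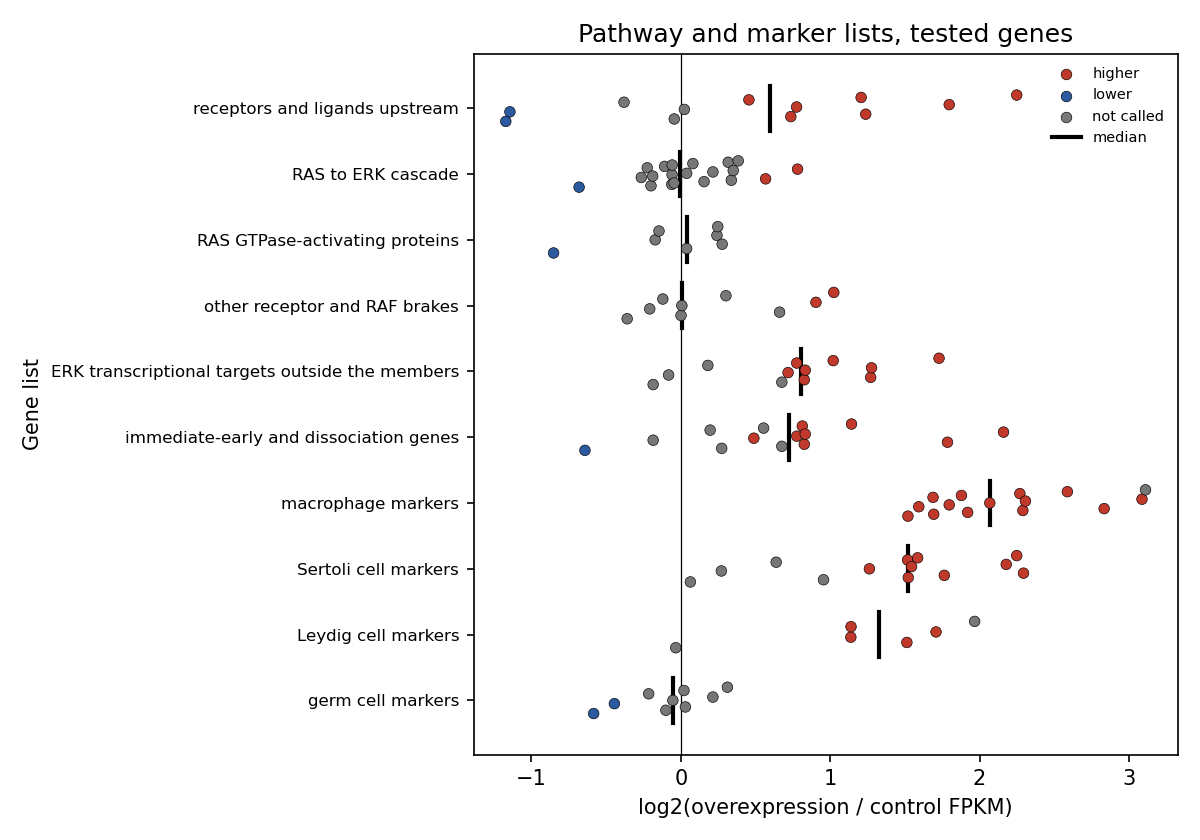
The log2 ratio of overexpression to control FPKM for each tested gene of the pathway lists and of the marker lists; red, blue and grey points were called higher, called lower or not called, and bars are medians. The cascade lies around 0 (median 0.00), ERK targets have a median of 0.80, and the macrophage and Sertoli lists lie highest, at 2.07 and 1.52.

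Gene structure and the 3′ untranslated region (UTR) were compared as features that expression did not choose. Spry1, Spry2, Dusp6 and Dusp1 have short deposited spans, of 4.65, 4.87, 4.26 and 2.88 kb. The annotated Dusp1 gene is much longer than its deposited span, from 26505590 to 26562128. Spred1 and Spred2 span 57.9 and 98.2 kb. The heptamer TATTTAT, the core of AU-rich elements that mark many short-lived messages, was counted on the sense strand in the longest annotated 3′ UTR of each gene. It was present in 7 of the 10 members, in 16 places in all, against 29.2% of 9886 tested genes, or 39.8% of the 6400 whose UTR is at least as long as the shortest among the members (690 bases). Members held 0.835 copies per kb and tested genes 0.285. Among the 4 called members, Spry4 held 4 copies, Spred1 held 3, Spry1 held 2 and Dusp6 held 0. Spry2 and Dusp1, not called, held 2 and 3. The motif nearest the stop codon is shown in capitals with its flanks, from the GENCODE M21 transcripts on GRCm38, for 4 of the 7. The sites of Spry4, Spred2 and Spred3 are not shown. In Spry1 and Spry2, 10 of the 11 bases before it are identical.
Spry1: attgtaaagaaTATTTATtatgcgaatct
Spry2: agtgtaaagaaTATTTATttgaagtttta
Spred1: tggcattttcaTATTTATgcactaggtga
Dusp1: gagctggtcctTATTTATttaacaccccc

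Some of these genes share their locus. A pair of noncoding RNA genes overlaps Spry4, an unclassified transcript overlaps Spry1 and an antisense RNA overlaps Dusp5, each on the opposite strand. Use of strand in counting is not stated, so reads of those partners cannot be told apart from reads of these 3 genes. Within their deposited spans, the other 7 members overlapped no other annotated gene. The part of the annotated Dusp1 gene outside its deposited span was not examined.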

How the data were processed

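RNA of 6 samples was sequenced, and per the labels' protocols it was extracted with Trizol and primed with oligo d(T). The submitters' processing notes list TopHat, Cufflinks and mm9 and give no versions. The deposited table has the layout of a Cuffdiff comparison, per the file headers, with 1 FPKM value per group made by the authors. The authors also deposited p-values and q-values from their own test, and 657 genes share the smallest q-value, so q does not rank them. The positions match GRCm38: 99.1% of 21585 symbols lay over the GENCODE M21 gene of that name, and coordinates are printed 1-based. The table has 23355 entries and 1 emptied line; the authors tested 10990.

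Fold changes were recomputed from FPKM (Python 3.11.15, pandas 2.3.3), with no pseudocount and no filter, and no model was refitted. Recomputing the Benjamini-Hochberg adjustment from the deposited p-values gave q-values within 4.77e-05 of theirs; the code was tested on simulated data. Members and gene lists were chosen with earlier results of these data known, so no list was tested. The rule named all members and, from each other list, the 3 largest called changes, or the 2 most abundant tested genes where none was called. Promoters were taken from RefSeq (GRCm38.p6); 8 of 10 members matched, and Spry4 and Dusp4 did not. The 3′ UTR counts used GENCODE M21. Alternatives were q thresholds, pseudocounts, an expression minimum, a fold minimum, centring and a longer promoter window.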

Additional observations from a re-analysis of the deposited data

How the results depend on the processing

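The members called higher numbered 3 at an authors' q of 0.01 (without Spred1), 5 at 0.1 (with Dusp5), 4 with FPKM of at least 1 and 3 with an absolute log2 fold change of at least 1; 0 were lower in each. The members' median log2 fold change of 0.85 became 0.59 and 0.82 with pseudocounts of 1 and 0.1 FPKM, 0.84 after the median of tested genes was subtracted, and 1.18 with Dusp4 and Spred3 included. At a q of 0.01, an alternative added after seeing the data, higher calls fell to 0 for SPRED genes, 1 for cytoplasmic ERK phosphatases and 1 for the cascade, and lower calls to 0 for the cascade, the RAS GTPase-activating proteins and the immediate-early list. At 0.1, 1 inducible nuclear phosphatase was higher and 2 JNK and p38 phosphatases were lower. In the 300-base promoter window CCGGAA was found in 1 member, Spry2. The changes with the q threshold follow from the threshold itself. Leaving out replicates was not run, since it needs values per sample. No paired analysis was possible because the table gives 1 value per group and the labels share no replicate numbers. The depth of each sample is unknown, and low genes such as Dusp4 and Spred3 were not tested.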
